A study of Mus musculus with 16 samples.

Results

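The Hox cluster genes were taken as every gene of the deposited table whose symbol is Hoxa, Hoxb, Hoxc or Hoxd followed by a number, 38 of 29535 genes. The Hoxa cluster gave 11 members, the Hoxb cluster 10, the Hoxc cluster 9 and the Hoxd cluster 8. Their transcripts were measured by poly-A RNA sequencing of whole mouse prostate at an age of 12 months, on a hybrid background of 129/SvImJ and C57Bl/6J. Both alleles of 1 gene were either wild type (+/+) or mutant (-/-) in these mice, and each genotype was given vehicle or finasteride, an inhibitor of the enzymes that make dihydrotestosterone. Vehicle was represented by 3 libraries in each genotype and finasteride by 5, which makes 16 in all. The comparisons ask how Hox expression in the gland differs with the genotype and with the drug, and whether the drug's effect differs between genotypes. Values below are the deposited normalized log2 expression, differences are log2 differences ± SE, and a gene with a mean under 10 after taking its values out of log2 was not tested. Of the 38 members, 26 were tested among 16895 genes.

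Hox genes encode homeodomain transcription factors that lie in 4 clusters, and their order along a cluster follows where along the body axis they are expressed in the embryo, with low paralog numbers at the head end and high numbers at the tail end. Adult organs keep much of the code of their place of origin. The prostate arises from the urogenital sinus, where the posterior Hox genes of paralog groups 9 to 13 act, and Hoxa13, Hoxd13 and Hoxb13 are each needed for normal growth or branching of prostate lobes. Hoxb13 stays on in adult luminal cells, where its protein acts with the androgen receptor.

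The libraries were not alike within groups in ways that touch the Hox genes. In 5 libraries (wild type vehicle replicate 3, wild type finasteride replicate 4, mutant vehicle replicate 3 and mutant finasteride replicates 3 and 4) the values lay close to a mixture of 2 other libraries of the same group, with a residual under 0.1 over 7686 genes, so each comparison was also made on the other 11 libraries. Replicate 2 of mutant finasteride stood apart from its group: it held the lowest or highest value of that group for 76.4% of all tested genes. The defining markers of prostate epithelium were present in every group, with none of 7 at a group mean under 3. Their summed level, led in wild type by the secretory gene Pbsn, was 18.29 to 18.51 in wild type vehicle, 17.83 to 18.52 in wild type finasteride, 16.58 to 16.64 in mutant vehicle and 15.57 to 15.87 in mutant finasteride. Pbsn itself was 18.08 to 18.31, 17.50 to 18.32, 15.66 to 15.73 and 10.35 to 11.46 in the same order of groups, while the epithelial keratin gene Krt8 was 12.20 to 12.41, 12.18 to 12.78, 12.05 to 12.21 and 12.48 to 12.93. Secretory genes of the seminal vesicle, a gland beside the prostate, varied widely within groups: their summed level over 8 markers was 9.87 to 21.73, 9.45 to 14.34, 16.64 to 17.94 and 16.69 to 21.54. That of 9 markers of epididymis and vas deferens was 8.89 to 8.99, 5.45 to 13.43, 5.33 to 6.20 and 8.56 to 14.35. In such bulk samples fewer cells of a type and less RNA per cell cannot be told apart.

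Levels were higher toward the posterior end in the Hoxa and Hoxb clusters. Corrected for transcript length, the highest mean belonged to Hoxb13, at 11.50 log2 units per kilobase, followed by Hoxa10 at 9.18, Hoxd8 at 9.09, Hoxb9 at 8.64, Hoxa13 at 8.46, Hoxd13 at 8.34 and Hoxa9 at 8.15. The value of Hoxd8 rests on a transcript model of only 557 bases, and the annotation used for lengths was not that of the deposited table. As a description across genes, which share their libraries, the Spearman correlation of this level with the paralog number was 0.92 in the Hoxa cluster (11 genes), 0.92 in the Hoxb cluster (10 genes), -0.35 in the Hoxc cluster (9 genes) and 0.24 in the Hoxd cluster (8 genes). In the Hoxd cluster Hoxd3 (6.56) and Hoxd8 stood above Hoxd12 (4.28) on the same scale, so that the order was not kept.

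**Figure D1:**
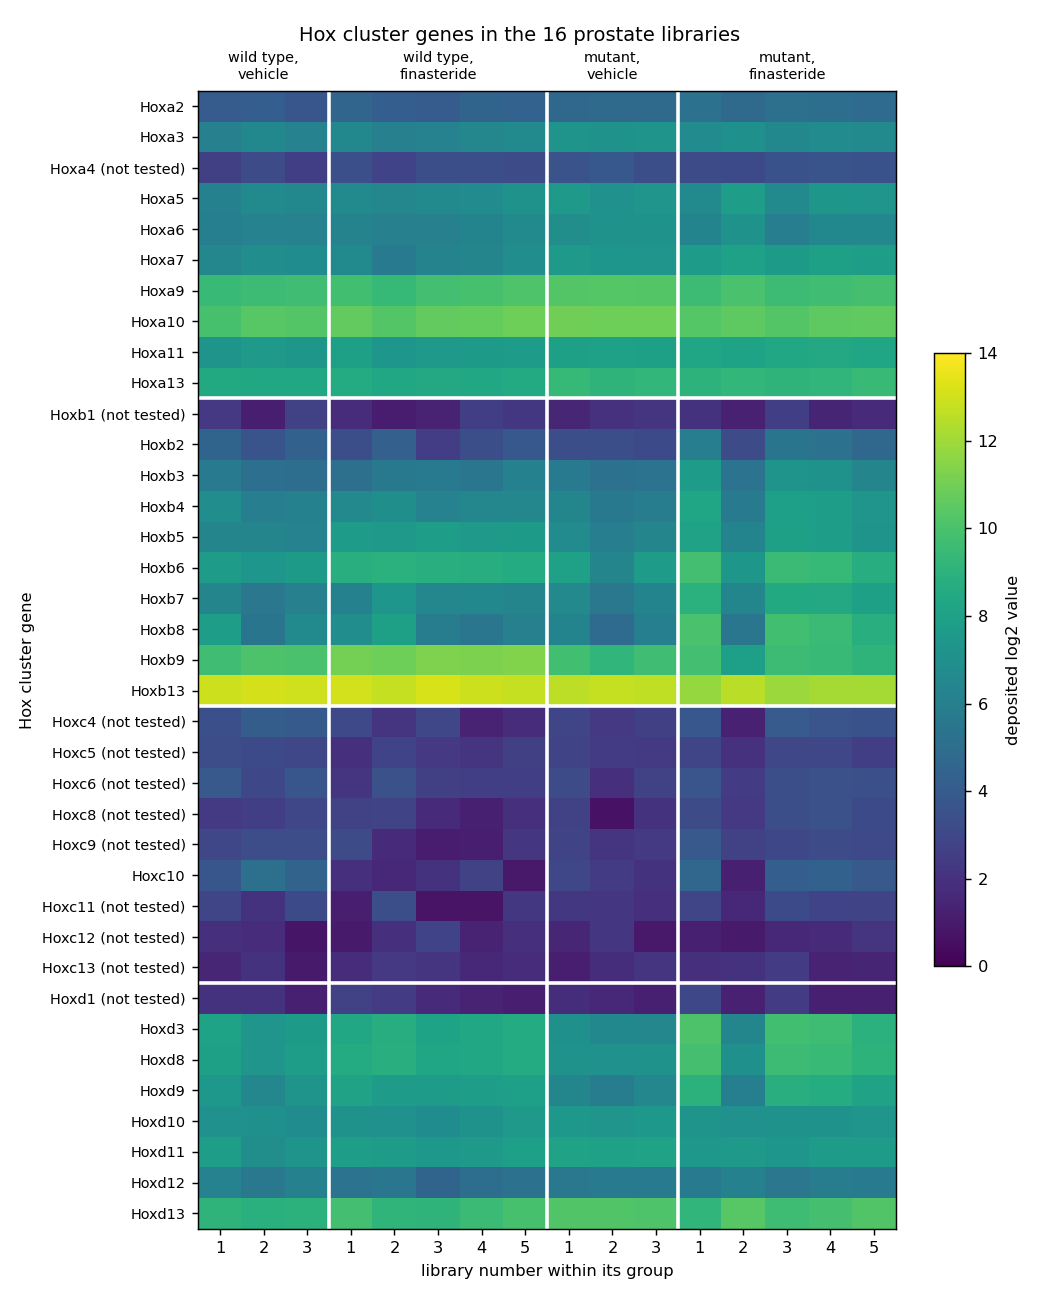
The deposited log2 values of the Hox genes described (one line per gene, ordered along each cluster) in the 16 libraries, grouped by genotype and treatment. Hoxb13 is the highest gene in every library and the Hoxc genes are near the floor. Replicate 2 of mutant finasteride is lower than the other 4 of its group from Hoxb2 to Hoxb9 and from Hoxd3 to Hoxd9.

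The Hoxc cluster was nearly silent. Of its 9 members only Hoxc10 was tested, with a mean log2 value of 3.03, and the other 8 had means of 1.63 to 3.02. Outside this cluster the untested members included Hoxa4 (3.28), Hoxb1 (1.87) and Hoxd1 (1.79). The mean of Hoxc10 out of log2 was 11.8, just above the minimum, while Hoxa4 at 9.98 and Hoxc4 at 9.17 were just under it. Because Hoxc10 reached the minimum through its high groups, its calls below are descriptions of a gene near the floor.

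**Figure D2:**
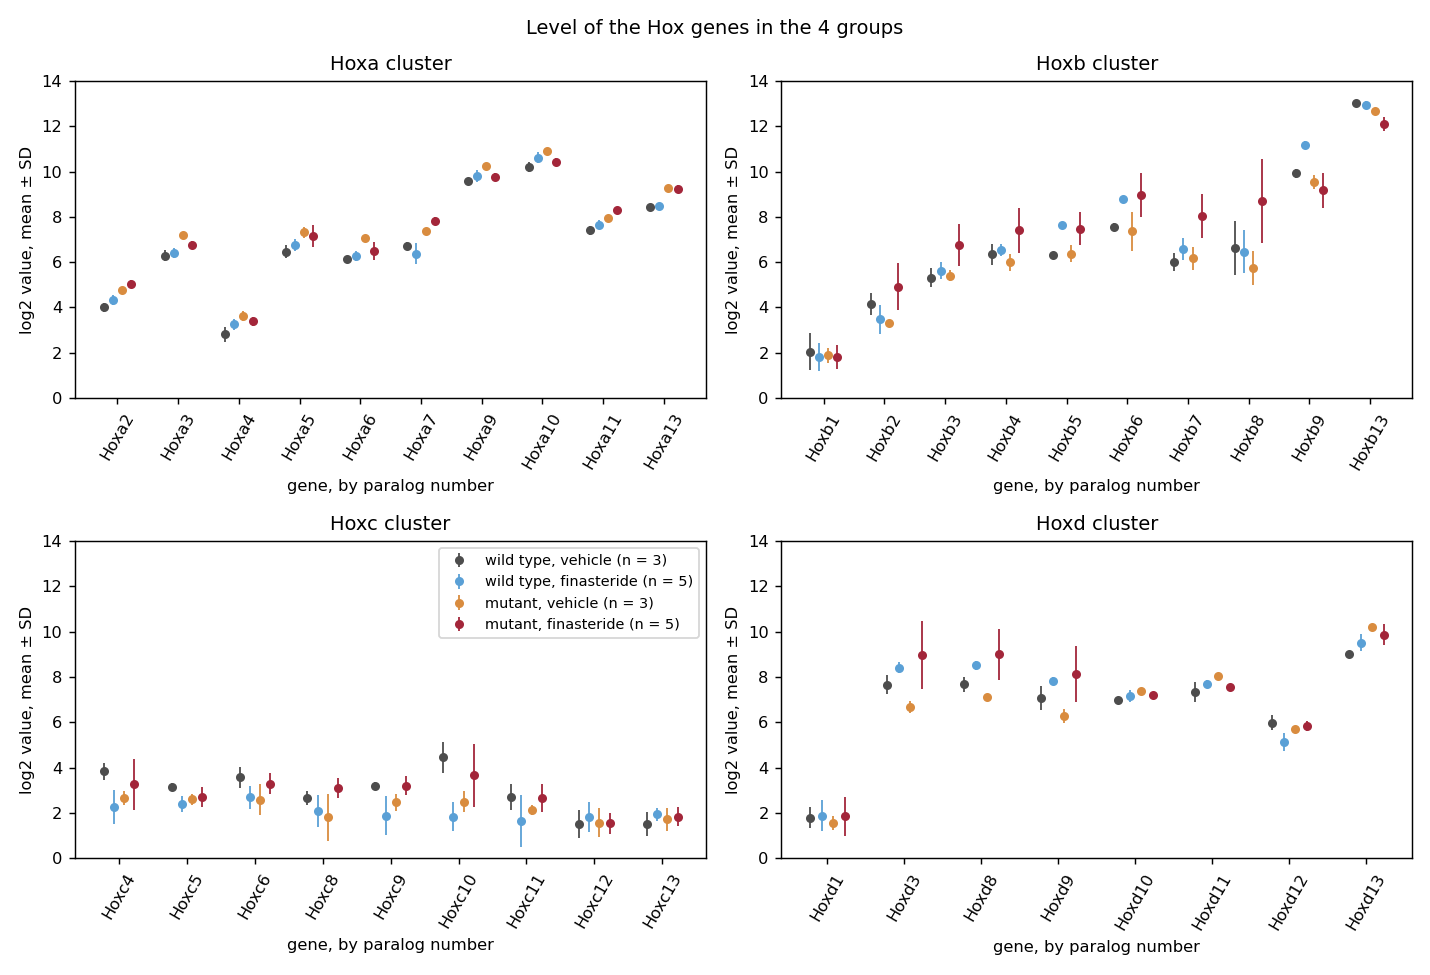
Mean log2 value ± SD of each Hox gene described in each of the 4 groups (n = 3, 5, 3 and 5), in order of paralog number within each cluster. The levels climb toward Hoxa9 to Hoxa13 and Hoxb9 to Hoxb13, and the mutant finasteride points of Hoxb8 (SD 1.85) and Hoxd3 (SD 1.49) have wide error bars, as does Hoxc10 near the floor (SD 1.38).

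Among the 26 tested members, the group with the highest mean was mutant finasteride for 12, mutant vehicle for 9, wild type vehicle for 3 and wild type finasteride for 2. Wild type vehicle had the lowest mean for 14. These are counts of means and do not say which neighbours differ, which the comparisons below give.

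On vehicle, the mutant had more RNA of the whole tested Hoxa cluster and of 3 genes of the 5' part of the Hoxd cluster than wild type. All 9 tested Hoxa genes rose, with a median difference of 0.79 against -0.00 over all genes, and Hoxd10, Hoxd11 and Hoxd13 rose too. Hoxd12, which lies among them, did not pass (-0.28 ± 0.24, adjusted p = 0.411, limma). In all, 12 of 26 members were higher and 1 (Hoxc10) was lower, where 14.3% of all tested genes were higher and 17.5% were lower. None of the 9 tested Hoxb genes passed, and limma gave 1 of them an unadjusted p under 0.05.

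Hoxa13, a regulator of genital and limb ends whose loss disturbs prostate growth, was 8.49, 8.34 and 8.41 in wild type vehicle and 9.39, 9.12 and 9.28 in mutant vehicle. On finasteride it was 8.62, 8.38, 8.44, 8.36 and 8.58 in wild type and 9.06, 9.29, 9.10, 9.23 and 9.48 in the mutant. Every mutant library was above every wild type library, with either treatment. The difference on vehicle was 0.85 ± 0.11, a fold of 1.8 (adjusted p = 4.46e-05, limma), and it held over 11 libraries (0.84, adjusted p = 0.0121).

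Hoxd13, which shapes the digits, the genital tubercle and the lobes of the prostate, was 9.12, 8.89 and 9.01 in wild type vehicle and 10.22, 10.19 and 10.17 in mutant vehicle. The groups did not overlap, and the difference of 1.19 ± 0.25 is a fold of 2.28 (adjusted p = 0.00232, limma). On finasteride the genotypes overlapped, with 9.83, 9.14, 9.13, 9.54 and 9.94 in wild type and 9.22, 10.35, 9.63, 9.89 and 10.22 in the mutant. That difference was 0.34 ± 0.20 (adjusted p = 0.137, limma).

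Hoxa10 and Hoxa9 have the highest deposited values of the Hoxa genes, before any correction for length, and both are known for patterning of the reproductive tract and the trunk. Hoxa10 was 9.95, 10.38 and 10.27 in wild type vehicle and 10.98, 10.93 and 10.89 in mutant vehicle, a difference of 0.74 ± 0.14 (adjusted p = 0.00125, limma). Hoxa9 was 9.45, 9.62 and 9.69 against 10.26, 10.31 and 10.23, a difference of 0.68 ± 0.14 (adjusted p = 0.00232, limma). For neither gene did the groups overlap.

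Hoxa3, an anterior member known from the thymus and the neck, moved with them. It was 6.10, 6.55 and 6.21 in wild type vehicle and 7.22, 7.13 and 7.24 in mutant vehicle, with no overlap and a difference of 0.91 ± 0.17 (adjusted p = 0.000705, limma). The other called Hoxa genes differed by 0.57 (Hoxa11) to 0.93 (Hoxa6).

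The call of Hoxa5 was lost in 3 of 16 fits that each left out 1 library and that of Hoxa7 in 5. Without wild type vehicle replicate 1, Hoxa5 differed by 0.69 (adjusted p = 0.0999, limma) and Hoxa7 by 0.56 (0.117). Hoxa5 was also lost without mutant vehicle replicate 1 (0.73, adjusted p = 0.0933) and replicate 3 (0.85, 0.0602), and Hoxa7 without wild type vehicle replicate 3 (0.71, 0.0626) and mutant vehicle replicates 1 to 3 (0.60 to 0.71, with adjusted p-values of 0.105, 0.0672 and 0.0617 by limma). Hoxd10 at 0.42 ± 0.15 (adjusted p = 0.0457, limma) was lost in 11 of those 16 fits, with adjusted p up to 0.165, and Hoxc10 at -1.96 ± 0.71 (0.045) in 10, up to 0.146.

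Over the 11 libraries that were not mixture-like, the calls of Hoxa9, Hoxa10 and Hoxa13 remained and the other 10 did not, while 11 members had an unadjusted p under 0.05. Of all tested genes 3.83% were called higher there and 5.23% lower. The share of all genes at an unadjusted p under 0.05 is not given, here or below, so such counts have no background. Without mutant finasteride replicate 2, which enters this comparison only through the shared estimate of spread, 12 members were higher and 5 lower: Hoxb13 (-0.34, adjusted p = 0.0219, limma), Hoxd3 (-0.99, 0.00838), Hoxd8 (-0.58, 0.0249) and Hoxd9 (-0.80, 0.025) were then called beside Hoxc10. In that fit 17.3% of all tested genes were higher and 20.4% lower. Reads of Hoxa11 and of its antisense transcript Hoxa11os cannot be told apart, since strand is not stated to have been used, and the same holds for Hoxb3, Hoxb5, Hoxb6 and Hoxd3 beside their antisense partners.

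Finasteride in wild type mice moved few Hox genes, mainly Hoxb5, Hoxb6 and Hoxb9 upward. Of the 26 members, 4 rose and 2 fell, where 17.9% of all tested genes were higher and 21.9% were lower. The count of higher members is close to that background, and that of lower members is under it. The median difference over the members was 0.27, against -0.03 over all genes. After quantile normalization the split was 8 higher and 1 lower, where 21.7% of all tested genes were higher and 16.3% lower.

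Hoxb9, a posterior gene of the thoracic and lumbar body axis, was 9.72, 10.07 and 9.96 in wild type vehicle and 11.07, 10.92, 11.28, 11.23 and 11.37 in wild type finasteride. All 5 treated libraries were above all 3 controls, by 1.26 ± 0.31 or a fold of 2.39 (adjusted p = 0.00533, limma). Hoxb5, a central gene known from lung and gut mesenchyme, was 6.37, 6.37 and 6.21 against 7.74, 7.56, 7.79, 7.54 and 7.62. It too did not overlap, at 1.33 ± 0.30 (adjusted p = 0.00319, limma).

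Hoxb6, beside them on the chromosome, was 7.67, 7.36 and 7.65 in wild type vehicle and 8.80, 8.92, 8.81, 8.72 and 8.61 in wild type finasteride. Its difference of 1.21 ± 0.43 (adjusted p = 0.0368, limma) lost its call in 8 of 16 fits that left out 1 library: those without any 1 of the wild type libraries, where adjusted p ran from 0.0507 to 0.102. Hoxa10 in wild type finasteride was 10.63, 10.23, 10.62, 10.68 and 10.90, overlapping the controls given above, with a difference of 0.41 ± 0.13 (adjusted p = 0.0192, limma). Without wild type vehicle replicate 1 this was 0.29 (adjusted p = 0.128, limma).

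Hoxd12 and Hoxc10 fell. Hoxd12, a gene of the limb and genital end of its cluster, was 6.23, 5.60 and 6.13 in wild type vehicle and 5.34, 5.52, 4.50, 5.07 and 5.20 in wild type finasteride, a difference of -0.86 ± 0.22 (adjusted p = 0.00609, limma). Hoxc10 was 3.77, 5.15 and 4.48 against 1.88, 1.62, 2.06, 2.70 and 0.94, a difference of -2.62 ± 0.63 (adjusted p = 0.00471, limma). Neither overlapped, but after quantile normalization Hoxd12 differed by -0.41 (adjusted p = 0.175, limma).

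The group 13 genes were not called with finasteride in wild type mice. Hoxb13 was 12.94, 13.09 and 12.99 on vehicle and 13.07, 12.79, 13.13, 12.95 and 12.79 on finasteride, overlapping groups with a difference of -0.06 ± 0.14 (adjusted p = 0.752, limma). Hoxa13 differed by 0.06 ± 0.099 and Hoxd13 by 0.51 ± 0.23 (adjusted p of 0.654 and 0.0833, limma). Hoxc13 stayed at the floor in every group, at 1.51, 2.07 and 1.01 in wild type vehicle, 1.76, 2.30, 2.18, 1.64 and 1.8 in wild type finasteride, 1.18, 1.81 and 2.16 in mutant vehicle and 1.86, 2.07, 2.41, 1.39 and 1.45 in mutant finasteride.

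Over 11 libraries no member was called with finasteride in wild type mice, where 3.56% of all tested genes were higher and 5% lower. Limma gave 6 members an unadjusted p under 0.05 there. Without mutant finasteride replicate 2, which again enters only through the spread, Hoxd3 (0.75, adjusted p = 0.0173, limma), Hoxd8 (0.85, 0.00117) and Hoxd9 (0.78, 0.0137) were called as well. The summed seminal vesicle markers were 21.73 and 20.42 in wild type vehicle replicates 1 and 3, and 9.87 in replicate 2. They were 14.34, 10.88, 9.53, 9.45 and 9.77 in wild type finasteride, so 1 of the controls lay within the treated range. The summed epididymis and vas deferens markers reached 13.43 in wild type finasteride replicate 2, which also had the highest Hoxb7 (7.38) and Hoxb8 (7.95) of its group. Their part in these differences was not tested.

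Finasteride in the mutant was accompanied by higher RNA along stretches of tested genes in 2 clusters. All 7 genes from Hoxb2 to Hoxb8 rose, with a median of 1.60 against -0.00 over all genes, and so did all 3 tested genes from Hoxd3 to Hoxd9, with a median of 1.90. Hoxd4 was not among the members, so the Hoxd stretch was seen only at Hoxd3, Hoxd8 and Hoxd9. Hoxb9 and Hoxd10, which follow these stretches, did not pass (-0.39 ± 0.31 and -0.20 ± 0.14, adjusted p of 0.32 and 0.238, limma). Hoxb13, Hoxd11, Hoxa3, Hoxa6, Hoxa9 and Hoxa10 fell, and Hoxa11 rose. That makes 11 members higher and 6 lower of 26, where 26.3% of all tested genes were higher and 22.3% were lower. After quantile normalization the split was 7 and 7, where 20% of all tested genes were higher and 27.7% lower. All 3 of the Hoxd genes and 4 of the 7 Hoxb genes were then still higher. The interaction described below was called for 2 of these 7 and 0 of these 3, and for 5 and 3 without mutant finasteride replicate 2. Of all tested genes 30.2% and 32.4% had a positive term called in these 2 fits. Over all 16 libraries most of them were thus not shown to rise differently in wild type. Hoxb5 and Hoxb6 rose by 1.33 and 1.21 in wild type, and by 1.10 and 1.60 in the mutant.

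Within the mutant finasteride group the 4 replicates other than replicate 2 carried this rise. Of these 4, replicates 3 and 4 were mixture-like, so they may not be independent samples and p-values without replicate 2 may be too low. Hoxb8, a central gene used in blood, spinal cord and microglia, was 6.33, 4.88 and 6.03 in mutant vehicle and 9.97, 5.51, 9.74, 9.57 and 8.76 in mutant finasteride; it is shown, like Hoxd9 and Hoxd10 below, because its values were seen to mark the stretch best. The groups overlapped only through replicate 2, and the difference of 2.96 ± 0.87 is a fold of 7.8 (adjusted p = 0.0107, limma). Without that replicate it was 3.76 (0.000105).

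Hoxd3, an anterior gene of the axial skeleton, was 7.0, 6.55 and 6.48 on vehicle and 10.10, 6.41, 9.76, 9.66 and 8.95 on finasteride. Hoxd8 was 7.12, 7.06 and 7.12 against 9.85, 7.03, 9.60, 9.43 and 9.07. Hoxb7 was 6.57, 5.60 and 6.34 against 8.92, 6.44, 8.53, 8.43 and 7.96. In each case replicate 2 lay within the vehicle range or below it and the other 4 lay above it. The differences were 2.30 ± 0.58, 1.90 ± 0.44 and 1.88 ± 0.44 (adjusted p of 0.00444, 0.0025 and 0.00267, limma), and without replicate 2 they were 2.94, 2.39 and 2.29.

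Over the 10 genes of the stretches replicate 2 stood below the mean of the other 4 by 1.47 (Hoxb5) or more, and within -0.29 to 0.27 of the mean of mutant vehicle. It was low beyond the stretches too, at -1.61 from the mean of the other 4 for Hoxb9 and -3.04 for Hoxc10. From the mean of mutant vehicle it stood at -1.67 and -1.27 for these 2 genes. Replicates 1, 3, 4, 5 and 2 stood in that order, from high to low, for 12 of the 26 members, and for 1928 of all 16895 genes. Many other genes thus show the same order. Replicate 3 lay closest to a mixture of replicates 1 and 5, and replicate 4 to one of replicates 1 and 2. Values of a mixture lie between those of its parts, so this may not be an order of 5 independent samples. What made the order was not tested. Some markers of neighbouring glands followed that order and others did not. Svs2, the main seminal vesicle secretory protein of the mouse, was 11.31, 13.31 and 12.18 in mutant vehicle and 21.17, 11.52, 21.00, 20.49 and 20.06 in mutant finasteride, and Crisp1, a sperm-coating protein of the epididymis, was 1.98, 5.42 and 3.66 against 14.30, 4.54, 14.07, 13.69 and 13.27. Svs3a and Svs4, further seminal vesicle genes, were highest in replicate 2: Svs3a was 13.34, 14.69 and 14.19 on vehicle and 11.84, 13.68, 12.47, 12.70 and 13.22 on finasteride, and Svs4 was 16.02, 17.27 and 16.79 against 14.57, 16.25, 15.20, 15.44 and 16.06.

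Over all 16895 tested genes, replicate 2 was the lowest of its group for 6854 and the highest for 6055. Over the whole lists, replicate 2 was the lowest of its group for 5 of 8 seminal vesicle markers and the highest for 2, and the lowest for 4 of 9 markers of epididymis and vas deferens and the highest for 1. It was the lowest for 5 of 6 endothelial markers and all 5 of nerve and glia, and the highest for 5 of 6 leukocyte, 3 of 4 basal and 3 of 5 urothelial markers. Of 7 prostate epithelium markers it was the highest for 4 and the lowest for 3, of 8 fibroblast markers it was the lowest for 4 and the highest for 2, and of 8 markers each of smooth and skeletal muscle the lowest for 3 and the highest for 2. The summed epididymis and vas deferens markers were 14.35, 8.56, 14.13, 13.76 and 13.36 in mutant finasteride replicates 1 to 5. Of the 9, Lcn5, Lcn8, Lcn9, Rnase9, Rnase10 and Spint4 had a mean under 3 in that group. Nearby organs carry Hox codes of their own, and the part of such tissue in the Hox differences was not tested.

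**Figure D3:**
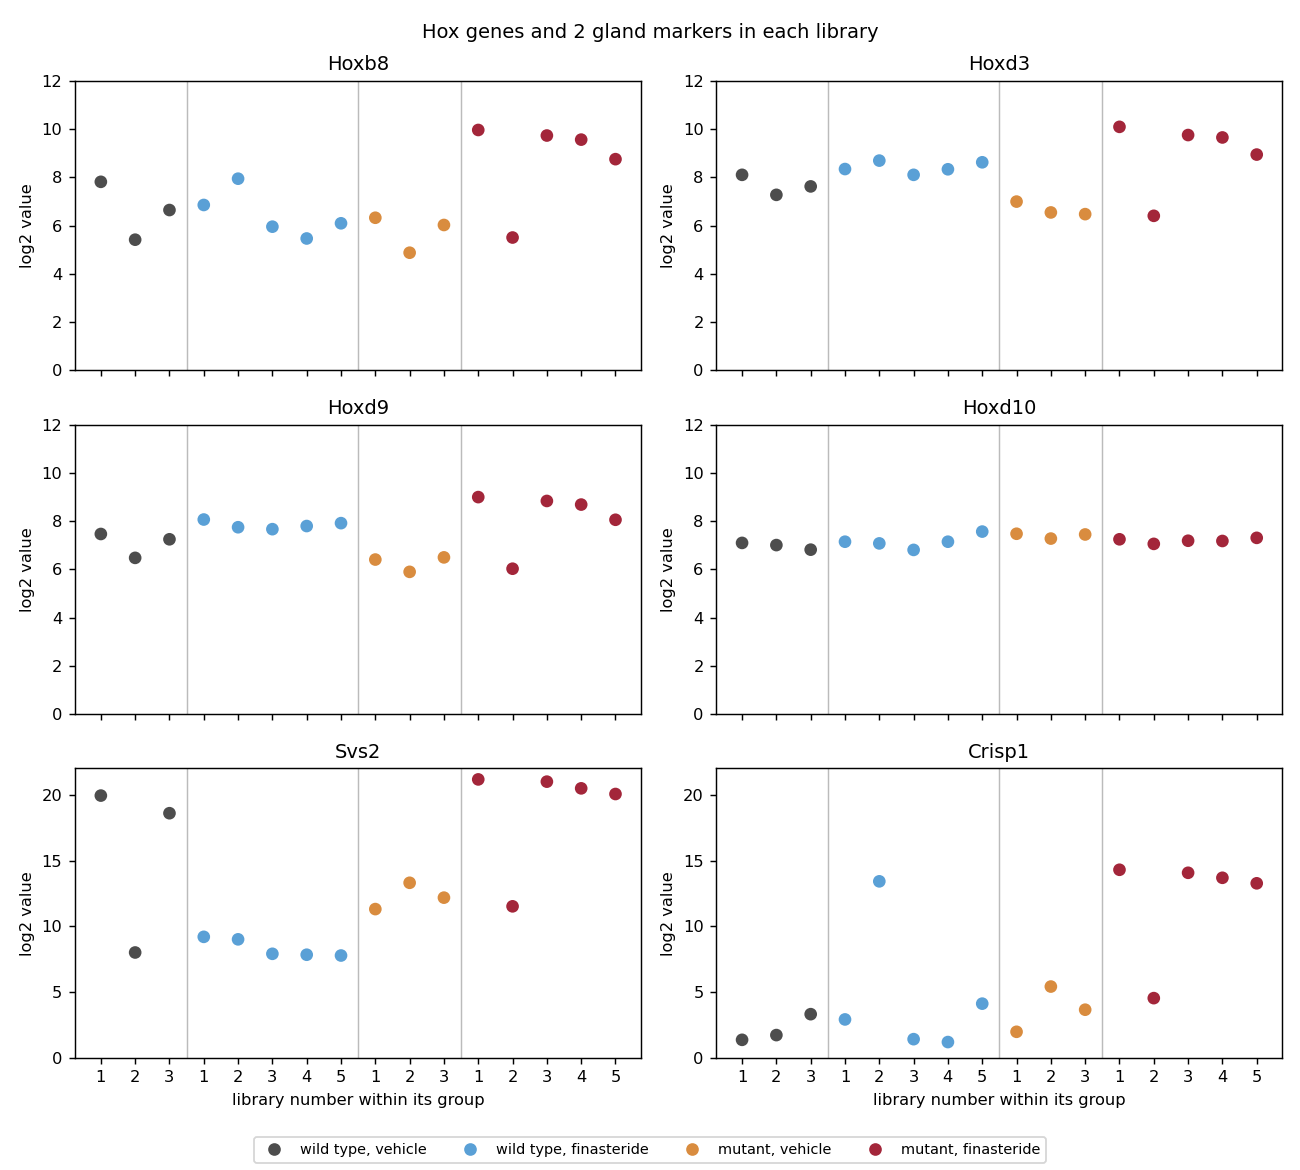
Log2 values of Hoxb8, Hoxd3, Hoxd9, Hoxd10, Svs2 (seminal vesicle) and Crisp1 (epididymis) in each of the 16 libraries, coloured by group. In mutant finasteride, replicate 2 lies low for Hoxb8 (5.51), Hoxd3 (6.41), Hoxd9 (6.03), Svs2 (11.52) and Crisp1 (4.54), while Hoxd10 stays between 7.06 and 7.31.

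The rise stopped between neighbouring genes of the Hoxd cluster. Hoxd9 was 6.41, 5.90 and 6.50 in mutant vehicle and 9.0, 6.03, 8.84, 8.69 and 8.06 in mutant finasteride, a difference of 1.86 ± 0.49 (adjusted p = 0.00592, limma). Hoxd10, the next gene, was 7.48, 7.28 and 7.45 against 7.25, 7.06, 7.19, 7.18 and 7.31, a difference of -0.20 ± 0.14 (adjusted p = 0.238, limma). Within libraries Hoxd9 minus Hoxd10 was -0.53 to 0.43 in wild type vehicle, 0.35 to 0.92 in wild type finasteride, -1.38 to -0.95 in mutant vehicle and -1.03 to 1.75 in mutant finasteride. The lowest of these last 5 was again replicate 2. Farther along, Hoxd11 was 8.09, 8.02 and 8.04 on vehicle and 7.45, 7.60, 7.35, 7.70 and 7.68 on finasteride, a fall of -0.50 ± 0.16 with no overlap (adjusted p = 0.0179, limma); without mutant vehicle replicate 1 it was -0.48 (0.0576).

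The sequences just before 3 of these genes show what lies at the edge of the stretch, and how Hoxb8 differs from the Hoxd pair. Each is the 250 bases upstream of the RefSeq start on GRCm38.p6, written on the gene's plus strand, with every TTTAT (on either strand, so also ATAAA) in capitals, a core that posterior Hox proteins can bind. Hoxb8 lies at chr11:96281655-96281904, Hoxd9 at chr2:74697513-74697762 and Hoxd10 at chr2:74691641-74691890.
Hoxb8: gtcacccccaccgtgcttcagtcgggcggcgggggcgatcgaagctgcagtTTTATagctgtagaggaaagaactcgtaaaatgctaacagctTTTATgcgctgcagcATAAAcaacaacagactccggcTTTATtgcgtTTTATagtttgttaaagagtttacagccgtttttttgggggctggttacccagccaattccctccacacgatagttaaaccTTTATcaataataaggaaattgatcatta
Hoxd9: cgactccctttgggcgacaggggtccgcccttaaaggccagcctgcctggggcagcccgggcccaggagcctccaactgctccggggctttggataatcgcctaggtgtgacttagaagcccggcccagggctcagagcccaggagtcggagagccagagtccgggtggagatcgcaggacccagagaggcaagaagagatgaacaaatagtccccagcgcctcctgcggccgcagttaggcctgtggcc
Hoxd10: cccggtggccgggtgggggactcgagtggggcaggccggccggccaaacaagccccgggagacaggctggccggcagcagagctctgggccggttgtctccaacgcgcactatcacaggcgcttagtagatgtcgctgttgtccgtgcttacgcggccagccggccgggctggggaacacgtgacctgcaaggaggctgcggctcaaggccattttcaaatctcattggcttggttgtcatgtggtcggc
The Hoxb8 window holds 6 matches and has a GC content of 44.4% with 12 CpG, while those of Hoxd9 and Hoxd10 hold none at 65.2% and 65.6% GC with 13 and 20 CpG. Windows were found for 21 of the 38 members, 23 windows in all. Of these members 7 have a TTTAT in a window, and 37.3% of the 32851 promoter windows of this length hold one. AGAACA, which reads TGTTCT on the other strand and is part of the site of the androgen receptor, was in the windows of 2 members and in 16.1% of all windows. AGGTCA, which reads TGACCT on the other strand and is part of the site of retinoid receptors, was in the windows of 5 members and in 14% of all. Of the 5, Hoxb4, Hoxd3 and Hoxd8 lie in the stretches that rose, and Hoxc4 and Hoxd10 do not. Hoxb8 and Hoxd9, also in those stretches, had none. For the rest of the stretches, Hoxb2, Hoxb3, Hoxb5, Hoxb6 and Hoxb7, no window was found, so they were not searched. A match is a description of letters and says nothing of binding.

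Hoxb13 fell with finasteride in the mutant. It was 12.60, 12.75 and 12.65 in mutant vehicle and 11.80, 12.57, 11.91, 12.13 and 12.13 in mutant finasteride, with no overlap and a difference of -0.56 ± 0.14, or 1.47-fold lower (adjusted p = 0.00342, limma). Here replicate 2 was the highest of the treated libraries, and without it the difference was -0.68. Hoxa9 (9.59, 9.98, 9.60, 9.73 and 9.88 on finasteride) and Hoxa10 (10.33, 10.55, 10.23, 10.50 and 10.58) were below all mutant vehicle libraries, by -0.51 ± 0.13 and -0.50 ± 0.13 (adjusted p of 0.00434 and 0.00521, limma).

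Other epithelial markers stood beside the fall of Hoxb13 in both directions. Pbsn was 15.66 to 15.73 in mutant vehicle and 10.35 to 11.46 in mutant finasteride, while Krt8 (12.05 to 12.21 against 12.48 to 12.93) and Cdh1 (12.55 to 12.64 against 13.05 to 13.17) were higher in every treated library. Summed leukocyte markers were also higher (10.73 to 11.22 against 9.67 to 9.86). Their part in the fall was not tested.

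Mutant vehicle replicate 2 decided several of these calls. Without it 6 members were higher and 5 lower, 11 in place of 17, and Hoxb3 (1.25, adjusted p = 0.0515, limma), Hoxb4 (1.23, 0.0655), Hoxb6 (1.11, 0.0589) and Hoxb8 (2.53, 0.059) were not called. Of all 16895 tested genes 3601 were then higher and 2912 lower. Of the 7 genes from Hoxb2 to Hoxb8, 3 were called in every fit that left out 1 library, and all 3 from Hoxd3 to Hoxd9 were. Hoxa3, Hoxa6 and Hoxa11, at -0.44, -0.57 and 0.33 in all libraries, lost their calls in 3, 3 and 5 of 16 such fits. Without mutant vehicle replicate 3 they differed by -0.42 (adjusted p = 0.0726, limma), -0.55 (0.0724) and 0.32 (0.0806), and without mutant finasteride replicate 3 by -0.39 (0.0522), -0.45 (0.0547) and 0.32 (0.0531). Over 11 libraries no member was called, although limma gave 7 an unadjusted p under 0.05 and 11.3% of all tested genes were still higher and 9.06% lower. Hoxb8 then differed by 2.48 and Hoxd3 by 1.71 (adjusted p of 0.161 and 0.154, limma).

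**Figure D4:**
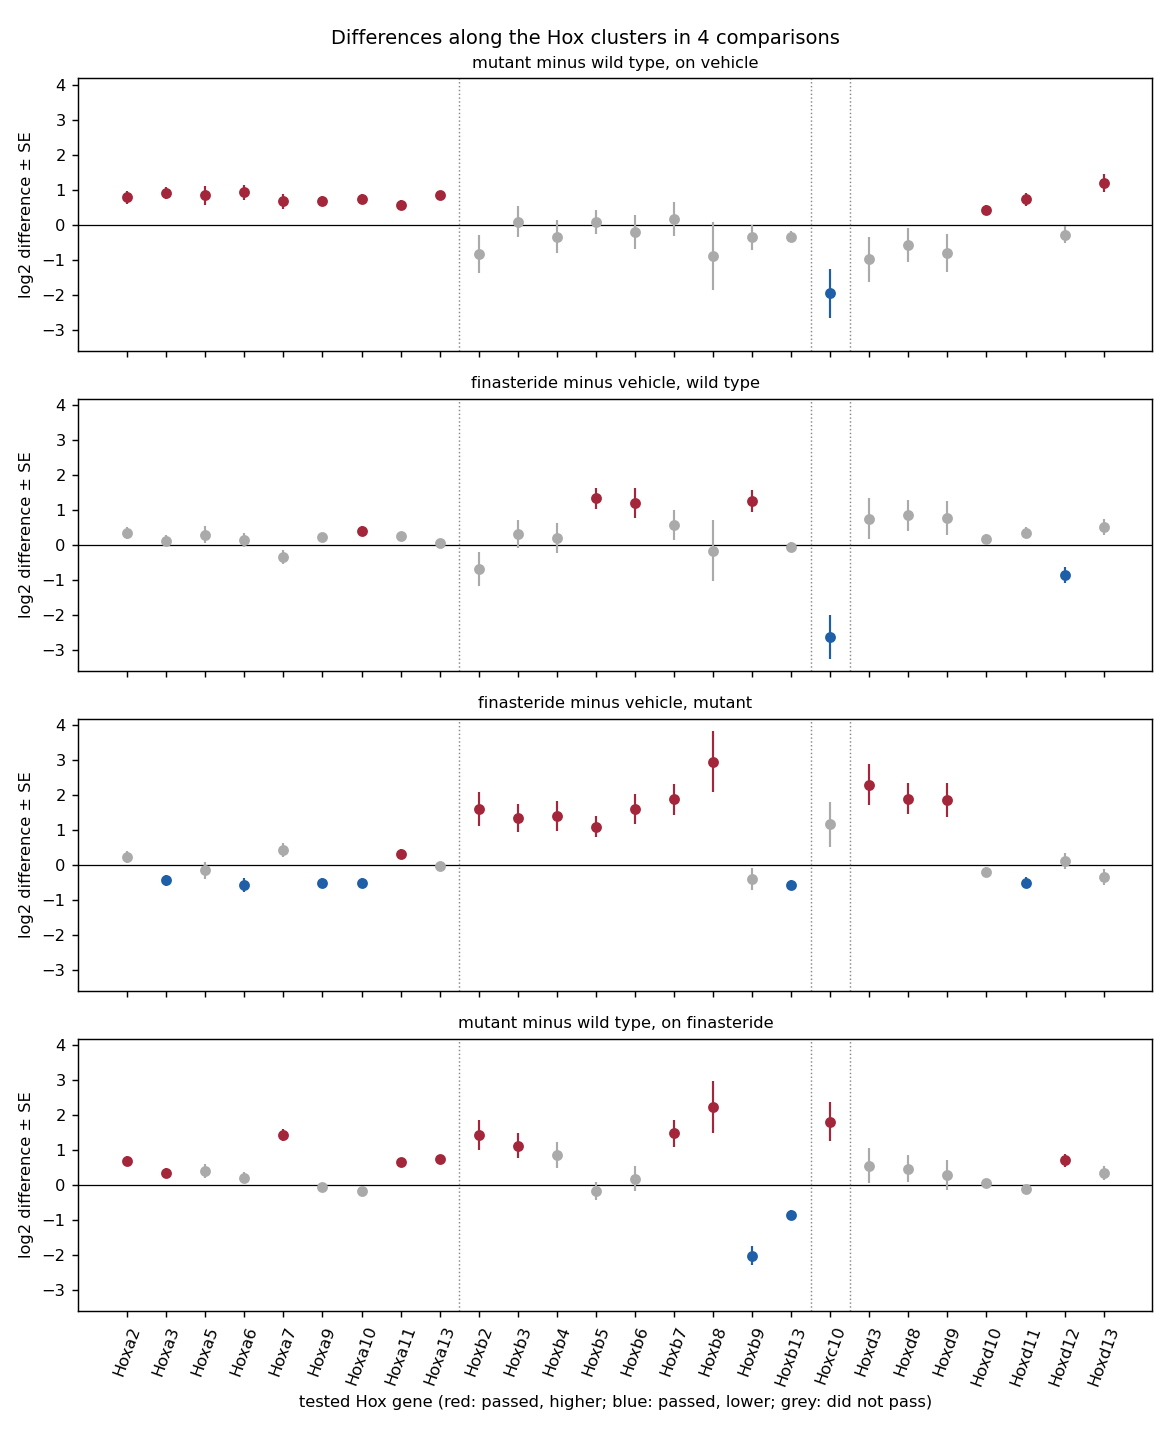
Log2 difference ± SE of each tested Hox gene in the 4 comparisons between groups, along each cluster. With the genotype on vehicle all 9 Hoxa genes are above 0, and with finasteride in the mutant Hoxb2 to Hoxb8 and Hoxd3 to Hoxd9 form blocks above 0 while Hoxb13 is at -0.56.

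On finasteride, mutant mice had more Hoxa7, Hoxa11 and Hoxa13 and less Hoxb9 and Hoxb13 than wild type mice, the 5 members with the lowest p in this comparison. In all 11 members were higher and 2 lower of 26, where 33.9% of all tested genes were higher and 29.7% were lower, so that the count of higher members is close to that background. The median over the members was 0.44, against 0.02 over all genes. After quantile normalization the split was 6 higher and 4 lower, where 26.6% of all tested genes were higher and 36.3% lower. Hoxa2 and Hoxa3, called at 0.69 and 0.35, then came out at -0.03 and -0.20.

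Hoxa13 in these groups, given above, differed by 0.76 ± 0.086 (adjusted p = 2.12e-06, limma). Hoxa7, a central gene of the thoracic axis, was 6.67, 5.70, 6.27, 6.39 and 6.88 in wild type finasteride and 7.74, 8.03, 7.61, 7.93 and 7.79 in mutant finasteride, a difference of 1.44 ± 0.17 or a fold of 2.71 (adjusted p = 3.84e-06, limma). Hoxa11, needed for the uterus, kidney and forearm, was 7.93, 7.38, 7.60, 7.63 and 7.72 against 8.27, 8.14, 8.38, 8.44 and 8.29, a difference of 0.65 ± 0.10 (adjusted p = 4.29e-05, limma). None of the 3 overlapped between the genotypes.

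Hoxb9 was 9.79, 7.88, 9.61, 9.46 and 9.09 in mutant finasteride, below every wild type finasteride library. The difference was -2.01 ± 0.27, or 4.01-fold lower (adjusted p = 1.08e-05, limma), and -1.68 without replicate 2. Hoxb13, with the values given above, was lower by -0.84 ± 0.12, a fold of 1.79 (adjusted p = 1.8e-05, limma), also without overlap. On vehicle the same genotype difference of Hoxb13 was -0.34 ± 0.15 (adjusted p = 0.103, limma), and those groups did not overlap either.

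These 5 calls were kept over 11 libraries, where 5 members were higher and 2 lower: Hoxa2 (0.68, adjusted p = 0.0285, limma) and Hoxd12 (0.77, 0.0425) were the others. Of all tested genes 22.4% were higher there and 18.7% lower. Apart from Hoxa3, the remaining called members were Hoxb2, Hoxb3, Hoxb7, Hoxb8 and Hoxc10, at 1.43, 1.13, 1.48, 2.24 and 1.82, and all of them overlapped between the genotypes through mutant finasteride replicate 2. Without it 14 members were higher and 2 lower, where 35.9% of all tested genes were higher and 31.1% lower. Hoxa3 was then no longer called (0.28, adjusted p = 0.0627, limma). Hoxa3 also lost its call without wild type finasteride replicate 2 (0.28, 0.0663) or replicate 3 (0.31, 0.0648).

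**Figure D5:**
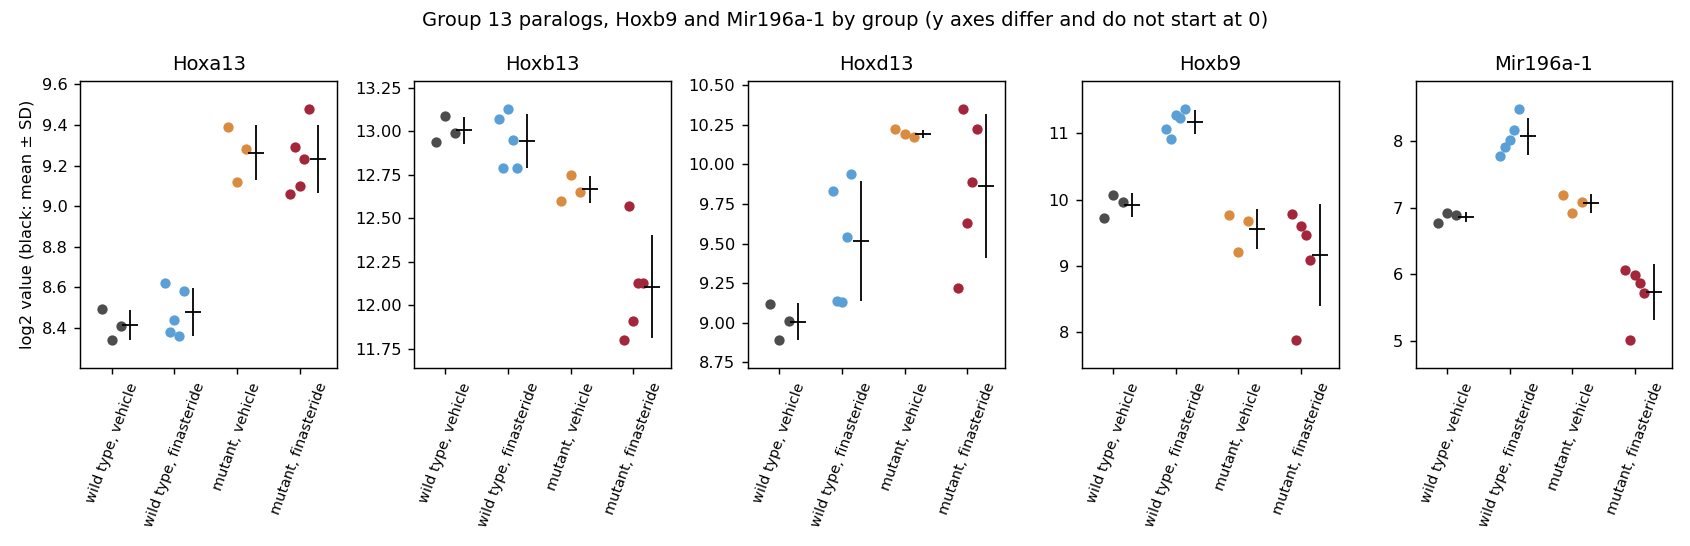
Log2 values of the group 13 paralogs, Hoxb9 and the Mir196a-1 transcript in each library by group, with group mean ± SD in black; the y axes differ and do not start at 0. Hoxa13 separates the genotypes, Hoxb13 is lowest in mutant finasteride (11.80 to 12.57), and Hoxb9 and Mir196a-1 are both highest in wild type finasteride.

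The effect of finasteride differed between genotypes for 13 of 26 members by the interaction term, 5 with a more positive and 8 with a more negative change in the mutant, where 30.2% of all tested genes were higher and 26.6% lower. As a set, the members were thus called no more often than all tested genes. The negative terms with the lowest p were of posterior genes: Hoxb9 at -1.64 ± 0.44 (adjusted p = 0.00501, limma), Hoxa10 at -0.91 ± 0.18 (0.000652), Hoxd11 at -0.85 ± 0.23 (0.00505) and Hoxa9 at -0.73 ± 0.18 (0.00327). For Hoxa9 and Hoxa10 the mutant fell on the drug from the high level it had on vehicle, while wild type differed by 0.22 ± 0.13 and 0.41 ± 0.13, of which only that of Hoxa10 passed.

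In wild type mice Hoxd11 was 7.81, 6.93 and 7.24 on vehicle and 7.81, 7.67, 7.45, 7.57 and 7.90 on finasteride, overlapping groups with a difference of 0.35 ± 0.16 (adjusted p = 0.0916, limma). Positive terms were found for Hoxb2 (2.28), Hoxb8 (3.13), Hoxc10 (3.78 ± 0.89, adjusted p = 0.00223, limma), Hoxa7 (0.77) and Hoxd12 (0.99). Hoxc10 in the mutant was 2.99, 2.47 and 2.05 on vehicle and 4.63, 1.23, 4.19, 4.33 and 3.92 on finasteride. Hoxd12 there was 5.59, 5.81 and 5.73 against 5.74, 6.17, 5.54, 5.89 and 5.83, and after quantile normalization its term was -0.05.

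This count moved with single libraries. It was 19 (11 positive and 8 negative) without mutant finasteride replicate 2, 7 without wild type vehicle replicate 3 or mutant vehicle replicate 3, and 8 without mutant vehicle replicate 2 or mutant finasteride replicate 3. In the first of these fits 32.4% of all tested genes had a positive and 29% a negative term called. In the others, in the order named, 4691, 4720, 4722 and 4838 of 16895 genes had a positive term called. Negative terms were called for 3975, 3963, 3958 and 4253. Over 11 libraries only Hoxa10 (-0.90, adjusted p = 0.0264, limma) and Hoxb9 (-1.83, 0.0406) were called, with 6 members at an unadjusted p under 0.05, where 17.4% of all tested genes were higher and 12% lower. After quantile normalization 1 term was positive and 9 were negative, where 22.7% of all tested genes had a positive and 32.9% a negative term called. The Hoxb13 term was -0.18 after that normalization (adjusted p = 0.349, limma). Its call in all libraries (-0.50 ± 0.19, adjusted p = 0.0372, limma) was lost in 10 of 16 fits that left out 1 library, where adjusted p reached 0.0849. Those of Hoxa3, Hoxa6, Hoxa7, Hoxb8 and Hoxd13 were lost in 8, 9, 4, 11 and 8 of them. The comparisons share groups with each other, so their values are given side by side and no overlap between them is counted.

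Noncoding transcripts of the clusters were taken from a list of 17 names, of which 15 were in the table and 9 were tested. On finasteride 3 were higher and 3 lower in the mutant, with a median of 0.45, a share close to the 33.9% and 29.7% of all tested genes. Mir196a-1 is a microRNA gene between Hoxb9 and Hoxb13, and its value counts poly-A RNA that covers the hairpin, which cannot be told apart from transcripts that overlap it. It was 6.77, 6.92 and 6.89 in wild type vehicle, 7.78, 7.91, 8.02, 8.17 and 8.49 in wild type finasteride, 7.19, 6.92 and 7.09 in mutant vehicle and 6.06, 5.01, 5.99, 5.87 and 5.72 in mutant finasteride. The wild type finasteride libraries were all above, and the mutant finasteride libraries all below, the rest.

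The genotype difference on finasteride was -2.34 ± 0.18 for Mir196a-1 (adjusted p = 3.08e-08, limma), the change with finasteride was 1.21 ± 0.21 in wild type and -1.34 ± 0.21 in the mutant (adjusted p of 0.000507 and 9.31e-05), and the interaction was -2.55 ± 0.29 (5.36e-06). All 4 calls were kept over 11 libraries. The neighbouring Hoxb9 had group means of 9.92 ± 0.18, 11.17 ± 0.18, 9.55 ± 0.30 and 9.17 ± 0.76 (SD, n = 3, 5, 3 and 5) beside 6.86 ± 0.08, 8.07 ± 0.27, 7.07 ± 0.14 and 5.73 ± 0.42 for Mir196a-1. Both were highest in wild type finasteride and lowest in mutant finasteride.

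The mature products are shown because the microRNA family of this locus is known to target Hox transcripts; seeds (bases 2 to 8) are in capitals. From RefSeq on GRCm38.p6, miR-196a-5p lies at chr11:96265187-96265208 in the Hoxb cluster and miR-196b-5p at chr6:52230129-52230150 in the Hoxa cluster.
mmu-miR-196a-5p: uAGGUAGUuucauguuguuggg
mmu-miR-196b-5p: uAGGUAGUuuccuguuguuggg
They share 1 seed. A search of the Hoxb8 transcript found a 22-base site in its 3' UTR at chr11:96284888-96284909 (GRCm38) in which 21 letters form Watson-Crick pairs with miR-196a-5p, against 14 at the next best place. Letters in such pairs are in capitals, and the lower-case g faces a u, with which it can form a wobble pair.
Hoxb8 site: CCCAACAACAUGAAACUgCCUA
The libraries hold poly-A RNA, so the mature microRNAs were not measured, and no relation between Mir196a-1 and Hoxb8 was tested. The Mir196b transcript was at 0.47 to 2.67 in all libraries.

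Other noncoding transcripts can be read beside their neighbours. Gm15053, which is Hottip, a transcript at the 5' end of the Hoxa cluster beside Hoxa13, was 4.81, 4.29 and 4.55 in wild type vehicle, 5.39, 5.06, 4.05, 4.90 and 5.02 in wild type finasteride, 6.25, 5.77 and 6.19 in mutant vehicle and 6.13, 6.78, 5.87, 6.28 and 6.60 in mutant finasteride. Like Hoxa13, it was higher in every mutant library than in every wild type library, by 1.52 ± 0.30 on vehicle (adjusted p = 0.0014, limma) and 1.45 ± 0.23 on finasteride (7.02e-05). The antisense transcript Hoxb3os was 7.98, 5.92, 7.68, 7.59 and 7.13 in mutant finasteride and 5.86 to 6.52 in the other 11 libraries, so that replicate 2 was again low. Its genotype difference on finasteride was 0.93 ± 0.28 (adjusted p = 0.00981, limma), and 0.65 (0.203) over 11 libraries.

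Of 15 listed genes beside the clusters, 12 were in the table and 11 were tested. On finasteride 3 were higher and 2 lower in the mutant, with a median of 0.08, where 33.9% of all tested genes were higher and 29.7% lower. Evx1, a homeobox gene next to Hoxa13, was 3.78, 3.08 and 3.30 in wild type vehicle, 3.86, 3.06, 3.17, 3.88 and 4.16 in wild type finasteride, 5.15, 4.59 and 4.89 in mutant vehicle and 6.59, 6.48, 6.55, 6.71 and 6.35 in mutant finasteride. The genotypes did not overlap, and on finasteride they differed by 2.91 ± 0.22, a fold of 7.53 (adjusted p = 2.68e-08, limma). Cbx5, which encodes heterochromatin protein 1 alpha and lies beside the Hoxc cluster, differed by 0.65 ± 0.079 and Skap1, an adaptor of T cells beside Hoxb1, by 2.17 ± 0.41 (adjusted p of 4.14e-06 and 0.000319, limma).

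On vehicle, Evx2, the homeobox gene next to Hoxd13, had the lowest p of these neighbours. It was 5.92, 5.80 and 6.01 in wild type vehicle and 6.88, 7.08 and 7.03 in mutant vehicle, a difference of 1.09 ± 0.18 with no overlap (adjusted p = 0.000369, limma). Like Hoxd11 it fell with finasteride in the mutant, to 5.81, 6.65, 6.01, 6.22 and 6.25, by -0.81 ± 0.16 (adjusted p = 0.00091, limma).

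Retinoic acid induces Hox genes from the anterior end of their clusters in the embryo. Of 19 genes of its synthesis, breakdown and receptors 17 were tested, and 14 rose and none fell with finasteride in the mutant, with a median of 1.33, where 26.3% of all tested genes were higher and 22.3% lower. Aldh1a3, which makes retinoic acid, was 6.57, 5.94 and 6.12 in mutant vehicle and 7.91, 7.68, 7.92, 7.87 and 8.04 in mutant finasteride, a difference of 1.67 ± 0.17 (adjusted p = 2.03e-06, limma). Dhrs3, which reduces retinal to retinol, was 9.63, 9.75 and 9.64 against 11.32, 11.23, 11.29, 11.30 and 11.24, a difference of 1.60 ± 0.17 (adjusted p = 2.73e-06, limma). The receptor gene Rxra was 9.55, 9.53 and 9.50 against 10.71, 10.29, 10.50, 10.51 and 10.25, a difference of 0.92 ± 0.092 (adjusted p = 2.03e-06, limma).

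These 3 genes were taken for their low p, and replicate 2 was above all mutant vehicle libraries for each. Crabp2, Cyp26b1, Rdh10 and Rbp4 of the same list had replicates 1, 3, 4, 5 and 2 in the order seen for the Hox genes, and Crabp2 in replicate 2 (2.54) lay within the mutant vehicle range of 2.0 to 3.69. Over 11 libraries 10 of the 17 were called with finasteride in the mutant, where 11.3% of all tested genes were higher and 9.06% lower. With finasteride in wild type mice 1 of the 17 was higher and 7 were lower, where 17.9% of all tested genes were higher and 21.9% lower. On vehicle none was higher and 9 were lower in the mutant, where 14.3% and 17.5% were. Whether these genes bear on the Hox differences was not tested.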

How the data were processed

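RNA of 16 prostate samples was measured after poly-A selection and TruSeq preparation, on a HiSeq2000 per the labels' protocols. The deposited table holds normalized log2 values for 29535 genes, made by the authors; the base of the log was inferred from library totals (log2 totals of 24.07 to 24.55). Per the submitters' processing notes, CASAVA 1.8.2, TopHat, Cufflinks, DESeq and DESeq2 were used with build mm9, and which of them made the table is not given in the sources used here. Counts are not in the files used here, so read depth is unknown.

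Groups came from the labels. The 4 groups of all 16 libraries were modelled together with limma 3.58.1 in R 4.3.3 (moderated variance with a trend) over 16895 genes whose mean out of log2 reached 10, and p-values of 5 contrasts were adjusted by Benjamini and Hochberg with a threshold of 0.05. Whether libraries came from separate animals is not in the labels; p-values then measure only the spread between these samples, which may be technical. A library was treated as mixture-like where a weighted pair of its group (both weights over 0.2) matched it with a residual under 0.1 over genes of at least 8. Alternatives were those 11 other libraries, each library left out in turn, quantile normalization, median centring, a pseudocount of 8, no minimum, a minimum of 50, no trend, no moderation, and only the groups compared. The model was tested on simulated data.

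Values in every library were given for group 13, the 2 tested members of each cluster with the highest mean value, and the 5 called members with the lowest adjusted p in each comparison; from each other list the 3 genes with the lowest p in the comparison described. A few members beyond this rule were chosen after their values were seen. Members and lists were chosen with earlier results of these data known. Transcript lengths, promoters and microRNAs came from GRCm38 annotation, matched by symbol. Marker levels were summed after taking values out of log2. Figures were drawn with matplotlib 3.10.9. The mutated gene and a few others are not reported here.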

Additional observations from a re-analysis of the deposited data

Results flagged for a closer look

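Replicate 2 of mutant finasteride stood far from the other 4 libraries of its group for 3 members by Dixon's criterion: Hoxb8 at 5.51, Hoxc10 at 1.23 and Hoxd8 at 7.03. The gap to the nearest library took 0.730, 0.791 and 0.724 of the group's range. The value of Hoxc10 lies at the floor. Of 52 combinations of a tested member and a group of 5 libraries these were the 3 that met the criterion, which chance meets in about 1 of 20.

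The change with finasteride differed between the genotypes by limma's interaction term for 13 of 26 members, where 30.2% of all tested genes had a positive and 26.6% a negative term called. That is no larger a share of the members than of all tested genes. The term, the change in the mutant minus that in wild type, was 3.78 for Hoxc10, 3.13 for Hoxb8, 2.28 for Hoxb2, 0.99 for Hoxd12 and 0.77 for Hoxa7. That of Hoxc10 only describes a gene near the floor, which reached the minimum through its high groups. The term was -0.50 for Hoxb13, -0.56 for Hoxa3, -0.71 for Hoxa6, -0.73 for Hoxa9, -0.85 for Hoxd11, -0.85 for Hoxd13, -0.91 for Hoxa10 and -1.64 for Hoxb9.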

How the results depend on the processing

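Over the 11 libraries that were not mixture-like, 3 members were called for the genotype on vehicle, 0 for finasteride in wild type, 0 for finasteride in the mutant, 7 for the genotype on finasteride and 2 for the interaction, against 13, 6, 17, 13 and 13 in all 16; at an unadjusted p under 0.05 limma gave 11, 6, 7, 9 and 6 there. Of all tested genes, 3.83%, 3.56%, 11.3%, 22.4% and 17.4% were higher over those libraries and 5.23%, 5%, 9.06%, 18.7% and 12% lower, in that order of comparisons. These are shares at the adjusted threshold, and none is given for the unadjusted p. Leaving out 1 library at a time gave 9 to 17, 5 to 9, 11 to 18, 12 to 16 and 7 to 19 called members in the same order. Over all 16895 tested genes these fits called 1745 to 2922, 1936 to 3541, 3601 to 4854, 5333 to 6065 and 4691 to 5478 higher. They called 2191 to 3443, 2629 to 4218, 2912 to 4202, 4644 to 5262 and 3892 to 4902 lower. Quantile normalization reversed Hoxa2 and Hoxa3 for the genotype on finasteride (-0.03 and -0.20) and the interaction of Hoxd12 (-0.05); the cause was not tested. Of the 62 calls of a member in a comparison, 10 were kept in every setting run: Hoxa9, Hoxa10 and Hoxa13 for the genotype on vehicle, Hoxa7, Hoxa11, Hoxa13, Hoxb9 and Hoxb13 for the genotype on finasteride, and Hoxa10 and Hoxb9 for the interaction. Calls were lost for 50 over 11 libraries, 14 after quantile normalization (beside the 3 reversed), 3 after median centring, 5 without the minimum, 6 without moderation, 2 without the trend, 2 of 49 with only the groups compared, and in 107 of 992 fits without 1 library; none was lost with a pseudocount of 8 or, of 53, with a minimum of 50. Median centring moved the median of all genes by -0.136 for finasteride in the mutant, -0.128 for the genotype on finasteride and -0.206 for the interaction, and quantile normalization by -0.115 and -0.146 for the last 2. No paired analysis was possible because the labels carry no replicate numbers shared between groups. Read depth is not known, so no limit is given for the 12 members near the floor, and fold changes of such low genes may be understated by the scale.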

Other observations

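The cofactors that bind DNA with Hox proteins are homeodomain proteins of the TALE class, and all 9 listed genes were tested. On finasteride 7 were higher and 2 lower in the mutant, with a median of 0.67 against 0.02 over all genes, where 33.9% of all tested genes were higher and 29.7% lower. Over 11 libraries 6 of the 9 calls were kept, where 22.4% of all tested genes were higher and 18.7% lower. Pbx3 was 6.51, 6.79, 6.39, 6.58 and 6.66 in wild type finasteride and 7.84, 7.54, 7.70, 7.71 and 7.58 in mutant finasteride, a difference of 1.09 ± 0.093 (adjusted p = 1.03e-07, limma). Pknox1 was 9.51, 9.34, 9.73, 9.53 and 9.37 against 8.73, 8.59, 8.61, 8.59 and 8.67, a difference of -0.86 ± 0.080 (2.52e-07). Neither overlapped between the genotypes.

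Chromatin regulators of the clusters were also measured. Of 23 Polycomb genes, which keep Hox genes silent, 6 were higher and 9 lower in the mutant on finasteride, with a median of -0.10. Of all tested genes 33.9% were higher and 29.7% lower, so these counts were near that background. Cbx6 was higher by 1.13 ± 0.058 (adjusted p = 5.36e-10, limma), and Jarid2 was lower, by -0.52 ± 0.069 (1.08e-05). Of 12 genes of trithorax type, which keep Hox genes active, or of H3K27 demethylases, 7 had a negative interaction term and none a positive one, against 26.6% and 30.2% of all tested genes. The lowest p belonged to Kmt2b (-0.77 ± 0.098, adjusted p = 1.39e-05, limma), Kdm6b (-1.05 ± 0.15, 3.21e-05) and Kmt2d (-0.72 ± 0.10, 3.65e-05). Kdm6b was 10.28, 10.35 and 10.21 in wild type vehicle, 10.78, 10.74, 10.90, 10.94 and 10.95 in wild type finasteride, 10.92, 10.93 and 10.93 in mutant vehicle and 10.72, 10.16, 10.42, 10.65 and 10.33 in mutant finasteride. With finasteride it thus rose in wild type (0.58 ± 0.10, adjusted p = 0.000697, limma) and fell in the mutant (-0.47 ± 0.10, 0.00166).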
